A study of Mus musculus with 60 samples.

Results

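Nascent transcription was compared between neuronal progenitor cells (NPCs) and mouse embryonic stem cells (mESCs) that carry the same degron allele and are labelled as controls. The members were 4 EU-seq libraries, chosen by their labels: 2 NPC controls and 2 mESC controls of an initial experiment, out of 60 samples listed for the series. A set of 12 further mESC controls, made in an additional experiment, served as a check. Genes entered a test when their mean count was above 20 in at least 1 of both groups, which left 17073 of 27665 counted transcripts, here called genes, for NPCs against initial mESCs.

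The labels give the mESC line as E14. In all of these cells RAD21, the subunit that closes the cohesin ring, is fused to GFP and an auxin-inducible degron (RAD21AID), and none received the auxin that would deplete it. EU-seq sequences RNA that took up 5-EU, here at 0.5 mM during a 20 min pulse, so that levels follow ongoing transcription more closely than total RNA does. According to the labels, mESCs were kept in N2B27 medium with LIF, 1 µM of the MEK inhibitor PD0325901 and 3 µM of the GSK3 inhibitor CT-99021. By the study's methods, NPCs were derived from RAD21AID mESCs through an epiblast-like stage and then kept with FGF2 and EGF, although the growth label of the NPC libraries repeats the mESC medium. The titles and treatment fields of the initial mESC libraries say control, but their treatment protocol describes DMSO or triptolide, which blocks transcription, without saying which library received what. They were taken as controls, and this doubt touches every value set against them. The NPCs and the additional mESCs were sequenced with a later version of the library kit and with longer reads than the initial mESCs, and no batch holds libraries of both cell types or of both mESC experiments. Cell type, medium and batch therefore cannot be told apart in any difference between NPCs and mESCs, nor batch and experiment between the 2 sets of mESCs. The labels do not say that replicates were separate cultures, so p-values measure the spread between these libraries only.

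In naive mESCs, a network of transcription factors around OCT4 (Pou5f1), SOX2 and NANOG, with KLF4, ESRRB and TFCP2L1 as naive members, keeps genes of differentiated lineages low. LIF signalling and inhibition of MEK and GSK3 hold cells in that state. Neural progenitors silence most of this network, keep or gain SOX-family factors such as SOX2, SOX1 and SOX9, and express radial glia genes such as Nes, Vim and Fabp7. Their division is sustained by FGF and EGF receptors, which signal through ERK and induce feedback inhibitors of the SPRY and DUSP families.

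The counts matched to genes were 18879085 and 21351965 in the NPC libraries, 9982425 and 12176991 in the initial mESC libraries and 6966470 to 19725013 in the additional ones. The 10 most counted genes held 3.00 to 5.98% of the counts of a library. Across genes, log2 CPM (counts per 1000000 counts of the TMM-scaled library) correlated at 0.998 between both NPC libraries, at 0.995 between both initial mESC libraries and at 0.994 to 0.997 among the additional ones, against 0.692 to 0.693 between NPC and initial mESC libraries. Additional and initial mESC libraries correlated at 0.963 to 0.974. Genes are not independent replicates, and these values are descriptions.

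The labels were checked against 5 marker genes. Klf4, a naive pluripotency factor, gave 9.26 and 7.62 CPM in the NPC libraries, 102 and 83.5 CPM in the initial mESC libraries and 189 CPM or more (median 215) in each of the 12 additional mESC libraries. Sox2, which both cell types use, gave 32.1 and 31.1 CPM in NPCs, 159 and 139 CPM in initial mESCs and 214 to 263 CPM (median 241) in additional mESCs. For both genes all NPC values lay below all mESC values, and Sox2 was still read at 277 TPM (counts per gene-body length, scaled to 1000000 per library) in NPCs. Gli3, a transcriptional effector of hedgehog signalling, gave 961 and 943 CPM in NPCs against 123 and 131 CPM in initial and 54.4 to 69.9 CPM (median 61.5) in additional mESCs. Fbn2, which encodes the microfibril protein fibrillin-2, was read at 598 and 583 CPM in NPCs, at 26.5 and 28.8 CPM in initial and at 6.88 to 10.2 CPM (median 8.39) in additional mESCs. Myc, a growth regulator, reached 67.8 and 62.6 CPM in NPCs, 2.83 and 2.97 CPM in initial and 10.2 to 13.4 CPM (median 11) in additional mESCs. Gli3, Fbn2 and Myc thus had both NPC values above every mESC value.

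**Figure D1:**
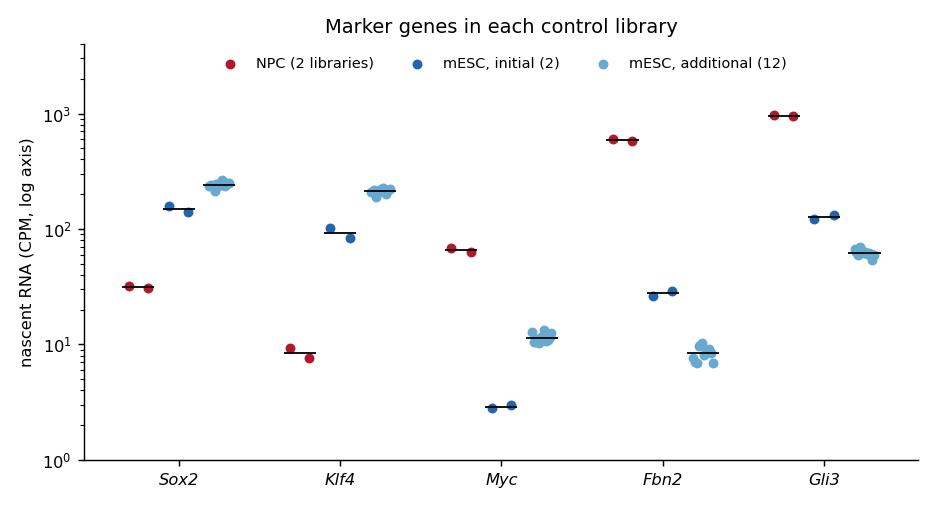
Nascent RNA of 5 marker genes in each control library, in CPM on a log axis, with a line at the mean of each group. Sox2 and Klf4 sit lower and Myc, Fbn2 and Gli3 higher in both NPC libraries than in every mESC library, and the initial and additional mESCs also separate from each other for each of the 5 genes.

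Against the initial mESCs, the log2 fold change (log2FC) in NPCs was −2.31 for Sox2 (SE 0.07, adjusted p = 1.6e-31) and −3.54 for Klf4 (SE 0.10, adjusted p = 1.68e-33). It was 4.40 for Myc (SE 0.13, adjusted p = 1.41e-32), 4.33 for Fbn2 (SE 0.09, adjusted p = 1.42e-40) and 2.83 for Gli3 (SE 0.08, adjusted p = 1.21e-34). SE here and below is the absolute fitted log2FC divided by the square root of the test's F statistic. It is not an error estimated by the fit, and it understates counting error where a group held few counts. Calls required a change of 2-fold or more together with an edgeR adjusted p under 0.05, after the median log2FC of genes with a mean above 15 TPM had been subtracted. By this rule all 5 were called, and each was also called in the same direction against the additional mESCs, with log2FCs of −2.86, −4.59, 2.59, 6.18 and 4.01 in the same order. The mESC experiments differed for these genes too, with log2FCs of additional over initial mESCs of 0.55 for Sox2, which was not called, 1.06 for Klf4, 1.82 for Myc, −1.85 for Fbn2 and −1.18 for Gli3.

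Of the 17073 genes tested, 4354 were called higher in NPCs than in initial mESCs (25.5%) and 3504 lower (20.5%). Against the additional mESCs, 4632 of 17290 genes were higher (26.8%) and 3235 lower (18.7%). Both comparisons use the same NPC libraries and are not independent. Between additional and initial mESCs, cells of one type, 386 of 15727 genes were called higher (2.45%) and 1250 lower (7.95%). Sizes differed as well: 2395 genes were called at 4-fold or more higher in NPCs than in initial mESCs and 1853 at 4-fold or more lower, whereas the mESC experiments gave 46 and 139 such genes. At 16-fold or more there were 876 higher and 918 lower genes in NPCs, and 1 and 2 between the mESC experiments.

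Most genes with a high level were used by both cell types. Means above 15 TPM were found for 9860 genes in NPCs and 9962 genes in initial mESCs, and 8281 of these were above 15 TPM in both. Among the 8281, 1040 were called higher and 778 lower in NPCs. Genes above 15 TPM in one cell type and under 1 TPM in the other were few: 203 were high in NPCs only and 282 in initial mESCs only. In the additional mESCs, whose values did not enter this choice, 184 of the 203 were also under 1 TPM, and 193 of the 282 were also above 15 TPM.

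**Figure D2:**
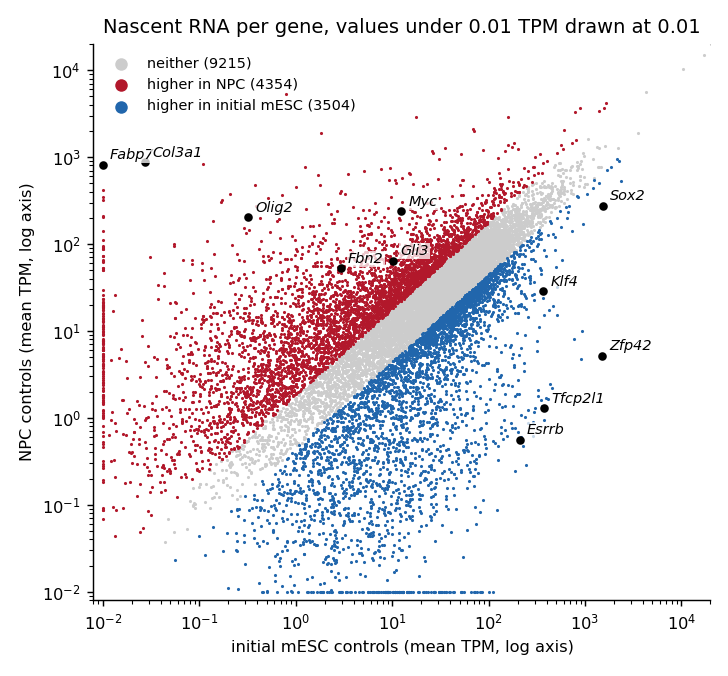
Mean TPM of 17073 genes in NPC controls (vertical) against initial mESC controls (horizontal), both on log axes, with values under 0.01 TPM drawn at 0.01. Genes called higher in NPCs (4354) are red, genes called lower (3504) blue, and most genes of high level in both cell types lie along the diagonal.

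By fitted log2FC, the largest increases in NPCs, among genes above 15 TPM there that were called in both comparisons and have a symbol not of the Gm or Rik form, were Igf2, Col3a1, Prrx1, Fabp7, Hoxb6, Emcn, Fap and H19. This order depends on the prior count of the fit where a group held no or few counts, and by the bounds and ratios given below it would differ. Fabp7, a fatty acid-binding protein of radial glia, gave 157 and 166 CPM in NPCs and no count in any mESC library. With 0 counts in both initial mESC libraries its increase was at least 1180-fold, taking a floor of 3 counts over the group. Igf2, an imprinted growth factor, gave 270 and 330 CPM in NPCs and 0 counts in the initial mESCs, at least 2210-fold more, but its whole gene body is shared with another counted gene, Gm49394, and reads of the 2 cannot be told apart. H19, the imprinted non-coding RNA encoded beside Igf2, gave 682 and 846 CPM in NPCs, and 2 counts in the initial mESCs, a ratio of 8430 (95% counting interval 2330 to 69600, adjusted p = 1.39e-43). Where a group held 1 to 3 counts, the ratio of summed counts per depth with its exact interval is given in place of the log2FC, and the interval covers counting error only. Col3a1, a fibrillar collagen of connective tissue, gave 1750 and 1930 CPM in NPCs and 1 count in the initial mESCs, a ratio of 40400 (7260 to 1600000, adjusted p = 1.97e-45). Prrx1, a homeobox factor of mesenchyme, gave 209 and 200 CPM in NPCs and 0 counts in the initial mESCs, at least 1490-fold more. Hoxb6 gave 103 and 103 CPM, Emcn (endomucin, a sialomucin of endothelium) 103 and 99.3 CPM and Fap (fibroblast activation protein) 59.7 and 67 CPM in NPCs, each with 0 counts in the initial mESCs. None of these 8 genes exceeded 0.29 CPM in an additional mESC library. In bulk libraries, more cells of a type and more RNA per cell cannot be told apart.

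By the same rule, the largest fitted decreases were in Sp110, Zim2, Zscan4d, Cdx1, Calhm3, Olfr836, Elf3 and Magea5. Zim2, a zinc finger gene of an imprinted cluster, gave 0 counts in NPCs, 24.3 and 27.5 CPM in initial and 24.8 to 32.4 CPM (median 28.8) in additional mESCs, at least 342-fold less in NPCs than in initial mESCs. Sp110, a nuclear body protein, also had 0 counts in NPCs, against 27.6 and 28.4 CPM in initial and 19.7 to 27.3 CPM (median 23.6) in additional mESCs. Zscan4d, of a gene family expressed in 2-cell embryos and in a minor share of mESCs, had 0 counts in NPCs and 18.1 and 11.9 CPM in initial mESCs, and its 3.53 to 5.25 CPM (median 4.34) in additional mESCs were called lower than in the initial ones. Elf3, an epithelial ETS factor, gave 1 count in NPCs, against 29.9 and 27.6 CPM in initial mESCs, which were higher by a ratio of 1130 (202 to 44600, adjusted p = 1.35e-30). Cdx1, a caudal-type homeobox target of Wnt signalling, gave 1 count in NPCs, against 47.7 and 42.1 CPM in initial mESCs (ratio of initial mESCs over NPCs 1760, 314 to 69400) and 13.6 to 21.9 CPM (median 19.0) in additional mESCs. Calhm3, Olfr836 and Magea5 gave 0 counts in NPCs and 6.88 to 10.7 CPM in the initial mESC libraries. Magea5 lies wholly within a second counted gene, Magea2, and Sp110, Zscan4d, Olfr836 and Magea5 belong to families of similar copies, whose reads the mapping-quality filter can remove or misplace.

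All 14 naive pluripotency genes tested were called lower in NPCs, with a median log2FC of −7.53 against 0.06 over all genes tested. The counts called in this and the following lists stand beside 25.5% higher and 20.5% lower over all genes tested. With the additional mESCs these shares were 26.8% and 18.7%. Esrrb, an orphan nuclear receptor, gave 3.91 and 2.37 CPM in NPCs and 974 and 1000 CPM in initial mESCs (log2FC −8.40, SE 0.12, adjusted p = 1.93e-45). Esrrb is counted as a pair of overlapping transcripts, and here as elsewhere the one with the higher level is given. Tfcp2l1, a naive transcription factor, was read at 4.39 and 3.79 CPM in NPCs and at 1010 and 1030 CPM in initial mESCs (log2FC −8.05). Zfp42 (Rex1), a widely used marker of the naive state, gave 4.12 and 2.75 CPM in NPCs, 822 and 844 CPM in initial and 987 to 1080 CPM (median 1020) in additional mESCs (log2FC −8.02). Nanog gave 2.20 and 1.56 CPM in NPCs against 324 and 289 CPM in initial mESCs. At the other end, Klf2 (log2FC −2.30), Tbx3 (−2.81), Klf4 (−3.54) and Klf5 (−4.42), which also act outside pluripotency, kept between 15.1 and 34.7 CPM in NPCs, or 7.62 to 9.26 CPM for Klf4. The summed level of the list was 94.7 and 107 CPM in NPCs, 4660 and 4680 CPM in initial and 5450 to 5710 CPM in additional mESCs.

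Of 12 core pluripotency genes, 11 were tested and 10 called lower (median log2FC −6.91). Pou5f1 (OCT4) gave 0.428 and 0.426 CPM in NPCs, 88.5 and 68.8 CPM in initial and 158 to 190 CPM (median 175) in additional mESCs (log2FC −7.57, SE 0.18, adjusted p = 3.05e-37). L1td1, an RNA-binding protein of mESCs, and Tdgf1, the Nodal co-receptor, had log2FCs of −7.54 and −7.10. Sall4, Sox2 and Trim71 changed less, with log2FCs of −2.99, −2.31 and −1.91. Sall1, which neural progenitors also express, gave 75.3 and 75.7 CPM in NPCs and 128 and 112 CPM in initial mESCs and was not called (log2FC −0.74, adjusted p = 1.63e-13). Utf1 did not reach the count minimum against the initial mESCs. It gave 0.161 and 0 CPM in NPCs, 1.62 and 1.87 CPM in initial and 16.8 to 21.4 CPM in additional mESCs. Nascent levels of this list were higher in additional than initial mESCs for 4 of 12 genes by the same rule, Utf1, Pou5f1, Tdgf1 and Lin28a.

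Of 28 neural progenitor transcription factors, 26 were named in the table, 25 tested and 20 called higher in NPCs, and none was called lower (median log2FC 3.21). Sox9, which specifies radial glia, gave 92.4 and 94.9 CPM in NPCs and 1 count in the initial mESCs (ratio 2050, 369 to 81200, adjusted p = 5.05e-38). Olig2, a bHLH factor of ventral progenitors and the oligodendrocyte lineage, gave 35.5 and 36.9 CPM in NPCs and 1 count in the initial mESCs (ratio 795, 142 to 31400, adjusted p = 3.12e-30). Nfia, a nuclear factor I gene, gave 1320 and 1270 CPM in NPCs and Meis1, a TALE homeobox gene, 1050 and 1020 CPM, against 16.9 and 19.4 CPM and 14.2 and 13.0 CPM in initial mESCs. Pax6 and Sox1, which mark neuroepithelium, gave 10.6 and 11.4 CPM and 18.7 and 18.3 CPM in NPCs, and both were called higher (log2FC 3.11 and 4.47). CPM are not scaled for gene length. In TPM, the NPC means were 68.2 for Nfia, 134 for Meis1, 6.96 for Pax6 and 69.1 for Sox1.

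The 5 factors tested but not called were Sox3, Sox21, Gli2, Zbtb20 and Lhx2. Sox3 gave 1.07 and 1.47 CPM in NPCs and 1.31 and 1.27 CPM in initial mESCs (log2FC −0.10). Gli2, the activator counterpart of Gli3, gave 403 and 389 CPM in NPCs and 492 and 565 CPM in initial mESCs (log2FC −0.50). Sox21, Lhx2 and Zbtb20 had log2FCs of 0.89, 0.79 and 0.77. Lhx2 and Zbtb20 were called higher against the additional mESCs, with log2FCs of 2.26 and 2.03.

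Radial glia and neural stem cell genes moved with these factors: 12 of 14 were called higher and none lower (median log2FC 3.14). After Fabp7, the largest changes were in Tnc, the matrix protein tenascin-C, at 248 and 265 CPM in NPCs and 0.404 and 0.680 CPM in initial mESCs (log2FC 8.76, SE 0.15, adjusted p = 7.06e-43), and in Ncan, the proteoglycan neurocan (log2FC 5.39). Egfr, the receptor for the EGF in the medium, gave 420 and 418 CPM in NPCs, 16.3 and 15.6 CPM in initial and 8.16 to 10.4 CPM (median 9.28) in additional mESCs (log2FC 4.64, SE 0.09, adjusted p = 3.93e-41). Vim and Nes, intermediate filament genes of progenitors, had log2FCs of 3.04 and 2.80. Nes gave 112 and 141 CPM in NPCs and 18.4 and 16.1 CPM in initial mESCs, so neither gene was silent in mESCs. Msi1 (log2FC 0.25) and Cspg5 (0.92) were not called. The summed level of the list was 2300 and 2360 CPM in NPCs, 253 and 259 CPM in initial and 200 to 218 CPM in additional mESCs.

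Genes of regional identity along the neural axis were higher for more than one region. All 6 forebrain genes tested of 7 listed were called higher (median fitted log2FC 5.76, or 4.06 with genes of 0 counts at their bound). Emx1 did not reach the count minimum, with 0 and 0.237 CPM in NPCs and 0.303 and 0.68 CPM in initial mESCs. Six3, of the anterior forebrain, gave 9.75 and 8.24 CPM in NPCs against 1 count in the initial mESCs (ratio 196, 35 to 7770). Emx2, a dorsal forebrain factor, gave 4.87 and 5.11 CPM in NPCs and 0 counts in the initial mESCs, at least 36.5-fold more, and Nkx2-1, of the ventral forebrain, 1.87 and 1.47 CPM, at least 12.1-fold more. Hox genes, which pattern the hindbrain and spinal cord and are low in forebrain, were also high. Of 16 listed, 13 were named in the table, 12 tested and 11 called higher (median log2FC 5.03). Hoxb3, Hoxb8 and Hoxb4 led, and Hoxb3 gave 202 and 197 CPM in NPCs and 0.505 and 0.255 CPM in initial mESCs (log2FC 8.97, SE 0.16, adjusted p = 3.9e-42). The initial mESC level of Hoxb3 rests on 5 and 3 counts. Hoxa3 and Hoxa5, both called, share their whole gene bodies with other counted genes. Hoxb1 did not reach the count minimum. Of 8 midbrain and hindbrain genes, En1, Irx3, Irx1 and Pax2 were called higher and Gbx2, Pax5 and En2 lower, beside 25.5% and 20.5% of all genes tested. En1 gave 18.6 and 18.5 CPM in NPCs and 0.404 and 0.425 CPM in initial mESCs (log2FC 5.37), and Gbx2, which mESCs also use, 1.55 and 0.899 CPM against 28.0 and 23.4 CPM (log2FC −4.48). In bulk counts, cells of several regional types and single cells with mixed identity cannot be told apart.

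**Figure D3:**
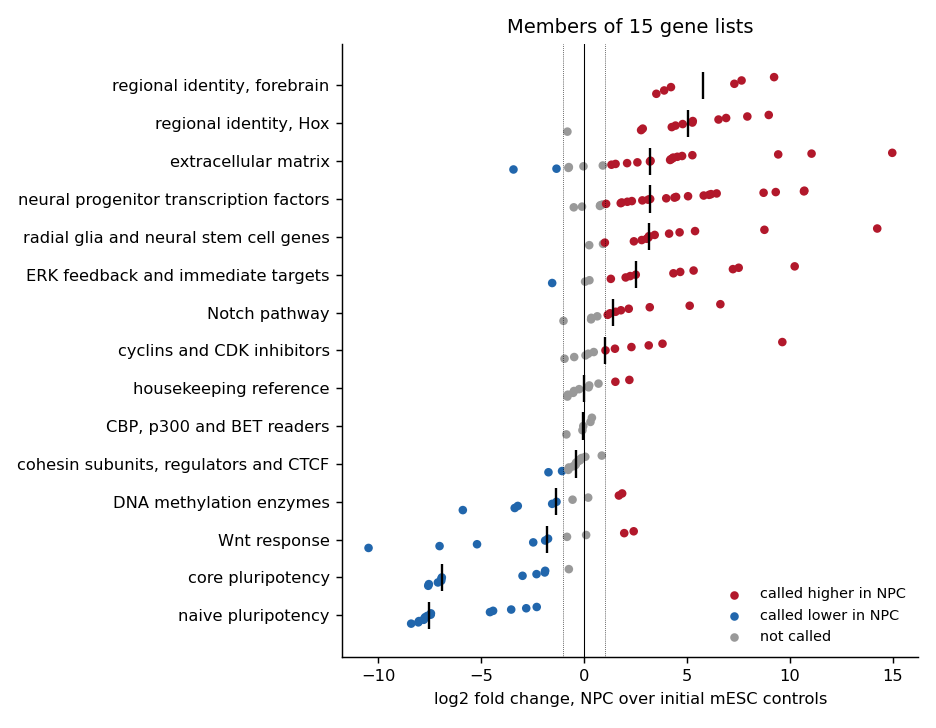
Log2 fold change, NPC over initial mESC controls, of each tested member of 15 gene lists, as fitted also where a group held 0 counts, with a line at each list's median and dotted lines at 2-fold. Naive and core pluripotency genes lie to the left (medians −7.53 and −6.91), forebrain and Hox genes furthest to the right (medians 5.76 and 5.03), and cohesin, CBP, p300 and BET reader and housekeeping genes near 0.

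Markers of other cell types that the cultures could hold were read in the same way. Of 12 neuron genes, 11 were tested, 6 called higher and 1 lower (median log2FC 2.31). Tubb3, Elavl3, Elavl4 and Gad1 were not called. Against the additional mESCs all 12 were tested, 8 called higher and 2 lower, with Neurod1 among the lower (log2FC −1.61). Dcx, of migrating neurons, gave 29.2 and 31.6 CPM in NPCs and 0 counts in the initial mESCs, at least 223-fold more. Snap25, a synaptic protein, gave 12.9 and 13.1 CPM in NPCs against 0.505 and 0.510 CPM, and Slc17a6, a glutamate transporter of neurons, 0.803 and 1.37 CPM against 1 count (ratio 24.2, 4.13 to 979). Stmn2, a neuronal microtubule regulator that mESCs transcribe, was lower, at 29.7 and 27.5 CPM in NPCs against 215 and 253 CPM (log2FC −3.12). The summed level of the neuron list was 450 to 461 CPM in NPCs, 331 to 365 CPM in initial and 326 to 350 CPM in additional mESCs.

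Of 6 astrocyte genes, 5 were tested and 4 called higher. Gja1, a gap junction protein, gave 225 and 207 CPM in NPCs against 14.6 and 13.8 CPM in initial mESCs (log2FC 3.85), and Slc1a2, an astrocyte glutamate transporter, 12.7 and 13.1 CPM against 0.101 and 0.340 CPM (log2FC 5.68). Gfap, an astrocyte filament gene, was called higher at only 1.18 and 1.56 CPM in NPCs and lost its call against the additional mESCs (log2FC 0.93). S100b, also called higher, gave 6.16 and 6.11 CPM, and the water channel gene Aqp4 0.214 and 0.142 CPM. Aldh1l1 gave 52.6 and 55 CPM in NPCs and 45.4 and 46.3 CPM in initial mESCs and was not called. In the oligodendrocyte lineage list of 6, Pdgfra, Cspg4 and Sox10 were called higher and Mbp and Mog lower, beside 25.5% and 20.5% of all genes tested. Pdgfra, the receptor of oligodendrocyte precursors and of mesenchymal cells, gave 262 and 254 CPM in NPCs and 5.96 and 5.27 CPM in initial mESCs (log2FC 5.45, SE 0.10, adjusted p = 2.18e-41). Sox10 rested on 1.82 and 1.33 CPM in NPCs (log2FC 1.52, SE 0.49, adjusted p = 0.00406) and was not called by DESeq2 (adjusted p = 0.0653). Mbp was called lower against the initial mESCs (log2FC −2.14), but its 10.3 and 9.14 CPM in NPCs were close to the 9.24 to 11.4 CPM of the additional mESCs, where its log2FC was 0.00.

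Of 8 neural crest genes, 6 were tested and Snai2, Tfap2b and Twist1 called higher. Snai2, which drives cells to a migratory state, gave 38.5 and 39.7 CPM in NPCs and 0.707 and 0.765 CPM in initial mESCs (log2FC 5.63, SE 0.20, adjusted p = 5.17e-30). Twist1, of mesenchyme, gave 26.1 and 22.6 CPM against 1.01 and 0.680 CPM (log2FC 4.78). Msx2 was called lower. Of 10 mesoderm and endoderm genes, 7 were tested, and Foxa2, of floor plate and endoderm, was called higher, with 4.07 and 4.78 CPM in NPCs and 0 counts in the initial mESCs, at least 32.5-fold more. Of the 2 genes called lower, Gata4 had a log2FC of −3.36. Over all genes tested 25.5% were called higher and 20.5% lower. Sox17 had 0 counts in NPCs. With the additional mESCs 9 genes of the list were tested, and 1 was called higher and 5 lower, where 26.8% and 18.7% of all genes tested were. The summed level of the list was 22.5 to 23.4 CPM in NPCs, 27.4 to 28.0 CPM in initial and 35.6 to 42.4 CPM in additional mESCs. Of 9 formative and primed pluripotency genes, 8 were tested, 4 called higher and 3 lower, against 2 and 2 with the additional mESCs. Sox4 (log2FC 5.66), a factor of neural cells as well, and Fgf15 (3.09), which neural progenitors use, were the highest, and Foxd3 (−5.59) and Dnmt3b (−3.37) the lowest. Otx2 was called higher against the initial mESCs (log2FC 1.51), but its 12 and 10 CPM in NPCs were close to the 10.9 to 15.1 CPM of the additional mESCs (log2FC −0.13), and 30.7% of its gene body is shared with Otx2os1. What part cells of these other types have in the levels of the NPC libraries was not tested.

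Genes induced by ERK, and its feedback inhibitors, were higher in NPCs: 10 of 13 were called higher and 1 lower (median log2FC 2.51). Egr1, an immediate early transcription factor, gave 563 and 511 CPM in NPCs and 0.909 and 0 CPM in initial mESCs (log2FC 10.23, SE 0.18, adjusted p = 1.28e-42). Its initial mESC level rests on 9 and 0 counts, so the size of this change is uncertain. Dusp6, an ERK phosphatase, gave 721 and 648 CPM in NPCs, 3.94 and 3.23 CPM in initial and 10.4 to 15.1 CPM (median 13.2) in additional mESCs (log2FC 7.51, SE 0.12, adjusted p = 4.76e-44). Spry4, an inhibitor of receptor tyrosine kinase signalling, gave 585 and 577 CPM in NPCs and 3.64 and 3.65 CPM in initial mESCs (log2FC 7.23), while its 42.4 to 53.6 CPM in additional mESCs gave a smaller log2FC of 3.64. Etv5, an ETS factor that mESCs also use, was lower, at 159 and 165 CPM against 437 and 457 CPM (log2FC −1.55). Spred2 and Fosl1 were not called. The mESC medium holds a MEK inhibitor and the NPC medium, by the methods, does not, so cell type and inhibitor cannot be told apart for this list.

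Wnt response genes went the other way, with 6 of 10 called lower and 2 higher (median log2FC −1.82). Beside Cdx1, Notum, a secreted Wnt deacylase, gave 0.161 and 0.568 CPM in NPCs and 49.4 and 45.3 CPM in initial mESCs (log2FC −7.02), and Sp5, a direct Wnt target, 1.18 and 1.23 CPM against 44.5 and 39.8 CPM (log2FC −5.20). Axin2, a negative regulator induced by the pathway, gave 56.3 and 56.8 CPM against 298 and 293 CPM (log2FC −2.47). Lgr5, a receptor for R-spondins, and Tcf7l2, a TCF factor of progenitors, were called higher (log2FC 2.41 and 1.95). The mESC medium also holds a GSK3 inhibitor, which activates the Wnt response, and cell type and inhibitor cannot be told apart here either.

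Of 13 Nodal, activin and BMP response genes, 7 were called higher and 4 lower (median log2FC 1.04). Nodal itself and its antagonists Lefty2 and Lefty1 were lower: Nodal gave 0.696 and 0.852 CPM in NPCs and 51.2 and 51.3 CPM in initial mESCs (log2FC −6.11), and Lefty2 0.107 and 0.142 CPM against 25.8 and 19.8 CPM (log2FC −7.48). Inhba, which encodes the activin A subunit, and the BMP targets Id1 and Id3 were higher. Inhba gave 62.9 and 68.7 CPM in NPCs and 2 counts in the initial mESCs (ratio 723, 200 to 5970), and Id1 48.8 and 45.1 CPM against 0.505 and 0.340 CPM (log2FC 6.71). Id3 gave 123 and 111 CPM in NPCs, 2.53 and 2.21 CPM in initial and 22.9 to 27.9 CPM (median 25.2) in additional mESCs, so its log2FC was 5.55 against the former and 2.29 against the latter. Of 13 Notch pathway genes, 12 were tested, 8 called higher and none lower (median log2FC 1.39). Dll1, a Notch ligand of neurogenic progenitors, gave 19.0 and 19.0 CPM in NPCs and 0.606 and 0.425 CPM in initial mESCs (log2FC 5.13), and of the target genes, Hey1 had a log2FC of 3.19 and Heyl a ratio of 123 over 1 count in the initial mESCs (21.9 to 4890). The receptor Notch1 gave 312 and 312 CPM against 138 and 127 CPM (log2FC 1.15). Hes5, the main Notch target of radial glia, did not reach the count minimum, with 0.321 and 1.18 CPM in NPCs.

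Extracellular matrix genes were mostly higher in NPCs. Of 22 tested, 16 were called higher and 2 lower (median log2FC 3.21), and their summed level was 8060 and 8490 CPM in NPCs, 2310 CPM in both initial and 2180 to 2350 CPM in additional mESCs. Beside Col3a1, Col1a1 gave 673 and 751 CPM in NPCs and 1.11 and 0.850 CPM in initial mESCs (log2FC 9.43, SE 0.14, adjusted p = 1.25e-44), and Col1a2 607 and 672 CPM against 0.606 and 0 CPM (log2FC 11.05). These encode type I and III collagens, which are made mainly by fibroblasts and other mesenchymal cells. Lama5 (log2FC −3.43) and Lama1 (−1.34), laminin chains of early epithelia, were lower, and Fn1, Lamc1, Nid1 and Nid2 were not called. Of 20 adhesion and axon guidance genes, 19 were tested, 13 called higher and 3 lower (median log2FC 2.22). Cdh11, a cadherin of mesenchyme and progenitors, gave 869 and 858 CPM in NPCs and 0 and 0.765 CPM in initial mESCs (log2FC 10.91, SE 0.17, adjusted p = 4.13e-44). Its initial mESC level rests on 0 and 9 counts. Epha3 and Chl1, an ephrin receptor and a neural adhesion molecule, had log2FCs of 7.01 and 5.97. The lower genes were the epithelial adhesion genes Cdh1, Cdh3 and Epcam. Cdh1 (E-cadherin) gave 3.00 and 2.70 CPM in NPCs and 255 and 273 CPM in initial mESCs (log2FC −6.62), whereas Cdh2 (N-cadherin), in the radial glia list, was called higher.

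Among cyclins and CDK inhibitors 6 of 11 were called higher and none lower (median log2FC 1.04). Ccnd2, a D cyclin of neural progenitors, gave 385 and 404 CPM in NPCs and 0.707 and 0.255 CPM in initial mESCs (log2FC 9.63, SE 0.16, adjusted p = 7.26e-44). Its initial mESC level rests on 7 and 3 counts. The CDK inhibitors Cdkn1c and Cdkn2c had log2FCs of 3.81 and 3.14, and Cdkn1a, a p53 target, was not called (log2FC 0.07). Against the additional mESCs 4 of the 11 were called higher and 1 lower, where 26.8% and 18.7% of all genes tested were. In the Myc family, Myc and the MXD repressors Mxd4 (log2FC 3.84) and Mxd3 (1.17) were called higher and the partner Max (−1.34) and the repressor Mxi1 (−1.29) lower, out of 11, shares near the 25.5% and 20.5% over all genes tested. Mxi1 was not called against the additional mESCs (log2FC −0.96). Mycn gave 45.7 and 38.4 CPM in NPCs and 47.2 and 42.5 CPM in initial mESCs (log2FC −0.17, not called), but 95.0 to 114 CPM in additional mESCs. In the stress and p53 list of 8, Ddit3 (log2FC 1.52), Hspa5 (1.32) and Ccng1 (1.29) were called higher and Trib3 (−1.81) lower. These counts too stand beside 25.5% and 20.5% over all genes tested. Hspa5 and Ccng1 were not called against the additional mESCs, with log2FCs of 0.51 and 0.90, which left 1 gene higher.

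DNA methylation enzymes split: of 9, 5 were called lower and 2 higher (median log2FC −1.34). Dnmt3l, the cofactor of de novo methylation, gave 0.536 and 0.189 CPM in NPCs and 19.3 and 21.2 CPM in initial mESCs (log2FC −5.89), and the de novo enzyme Dnmt3b 7.23 and 9.09 CPM against 84.0 and 76.2 CPM (log2FC −3.37). Dnmt3a, its paralog, went up, from 74.2 and 74.0 CPM to 279 and 284 CPM (log2FC 1.85, SE 0.07, adjusted p = 7.89e-29). The TET dioxygenases split likewise, with Tet1 at 69.5 and 70.7 CPM in NPCs against 557 and 677 CPM in initial mESCs (log2FC −3.22) and Tet3 at 188 and 177 CPM against 51.2 and 55.3 CPM (log2FC 1.69). Dnmt3a, Tet1 and Tet3 each have a second, overlapping transcript in the table. Dnmt1, the maintenance enzyme, was not called (log2FC −0.56).

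Of 15 cohesin subunits, regulators and CTCF, 2, Esco2 and Wapl, were called lower and none higher (median log2FC −0.40). Over all genes tested these shares were 20.5% and 25.5%. Esco2, the acetyltransferase of S phase, gave 26.1 and 28.5 CPM in NPCs and 85.8 and 85.6 CPM in initial mESCs (log2FC −1.73). Wapl, which releases cohesin from chromatin, gave 189 and 184 CPM against 351 and 392 CPM (log2FC −1.07). Against the additional mESCs, Wapl was not called (log2FC −0.76), whereas Stag2, a cohesin subunit, was called higher (log2FC 1.22) and Cdca5 (sororin), which protects cohesion, lower (−1.24). Rad21 gave 182 and 194 CPM in NPCs, 232 and 237 CPM in initial and 257 to 274 CPM (median 264) in additional mESCs (log2FC −0.40, SE 0.07, adjusted p = 6.03e-07), and Ctcf 197 and 198 CPM in NPCs and 227 and 237 CPM in initial mESCs (log2FC −0.31). All NPC values of both genes lay below all mESC values, with changes under 2-fold. None of 5 CBP, p300 and BET reader genes was called (median log2FC −0.04), and Ep300 and Crebbp had log2FCs of −0.04 and 0.38. Of 10 housekeeping genes, 2 were called higher, among them Actb (log2FC 2.20), and the 8 not called lay between −0.81 and 0.70 (median of the list −0.01). Actb gave 747 and 735 CPM in NPCs, 170 and 136 CPM in initial and 301 to 387 CPM (median 359) in additional mESCs, and it was also called between the mESC experiments.

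The share of genes called depended on gene length, and in different ways against the 2 sets of mESCs. Among genes with a mean above 15 TPM, 18.6% were called higher in NPCs than in initial mESCs and 15.6% lower. Under 10 kb, 29.9% of 3290 genes were higher and 9.94% lower (median log2FC 0.44). Between 50 and 100 kb, 10.6% of 1344 were higher and 24.3% lower (median −0.39), and at 200 kb or more 17.4% of 149 were higher and 22.8% lower (median −0.06). Against the additional mESCs, the medians for the same bins were 0.13, −0.02 and 0.60, and at 200 kb or more 38.6% of 101 genes were higher and 8.91% lower. The additional mESCs differed from the initial ones by length themselves: the median log2FC was 0.36 under 10 kb, −0.35 at 50 to 100 kb and −0.54 at 200 kb or more. The sign of the median at 100 kb and above thus depended on the mESC experiment (−0.35 and 0.17 at 100 to 200 kb, −0.06 and 0.60 at 200 kb or more). At 200 kb or more against the initial mESCs it also depended on the expression limit: of all 939 genes tested at 200 kb or more, 39.6% were higher and 21.1% lower than in initial mESCs (median log2FC 0.42), and of 944 tested against the additional mESCs 51.7% were higher and 12.9% lower. For Gli3 (266 kb) and Fbn2 (202 kb) both comparisons gave a call, but the log2FC differed by over 1 between them.

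**Figure D4:**
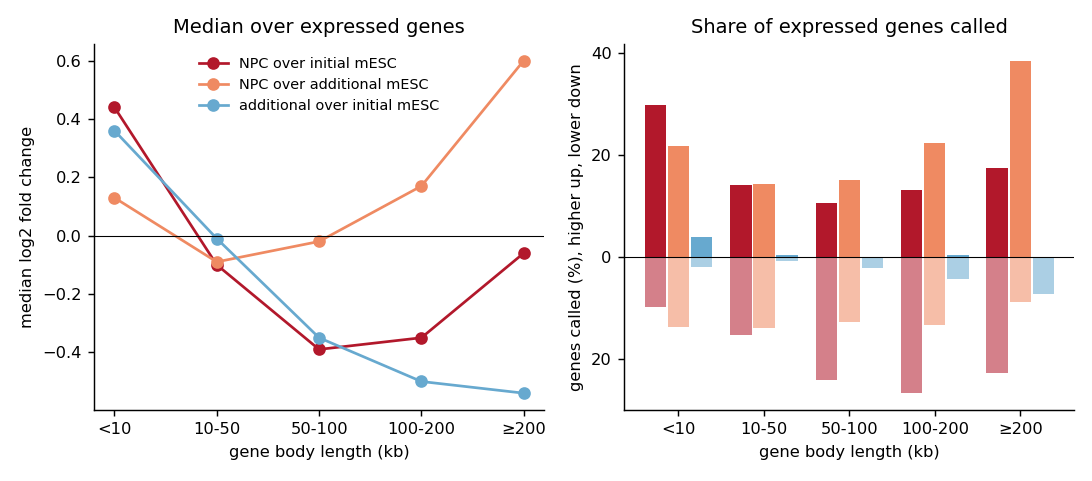
Left, median log2 fold change of genes above 15 TPM by gene-body length for NPC over initial mESC, NPC over additional mESC and additional over initial mESC. Right, share of these genes called, higher drawn upwards and lower downwards in paler bars; the shortest genes lean higher in NPCs against the initial mESCs (29.9% against 9.94%), and the longest against the additional ones (38.6% against 8.91%).

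Promoter CpG content was compared between the classes of genes. For each gene the 250 bases before and 50 after the counted start were read from the GRCm38.p6 genome, and the count of CG was divided by the count its C and G content predicts. This ratio was 0.6 or more in 39.9% of all 27433 windows, which include those of genes not tested. Of the 17073 genes tested, some without a window, 10311 had such a ratio. It was found in 71.4% of the tested genes not called (median ratio 0.765). Shares were lower in genes higher in NPCs, at 51.2% (median 0.612), and in those higher in initial mESCs, at 45.1% (median 0.539). A ratio of 0.6 or more was reached by 34.5% of the 203 genes above 15 TPM in NPCs and under 1 TPM in initial mESCs and by 18.1% of 281 in the reverse class (medians 0.438 and 0.313). Split the other way, of genes above 15 TPM with a ratio under 0.4, 25.4% were higher and 26.7% lower in NPCs, against 16.1% and 13.2% at 0.6 or more. Against the additional mESCs these shares were 25.8% and 23.5%, and 14.8% and 11.5%. Whether these shares differ was not tested. Starts are those of transcripts the authors chose with mESC data, so some starts used in NPCs may lie elsewhere.

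The sequences below are the 250 bases before the start, 5′ to 3′, of 3 genes high in NPCs and 2 high in mESCs that span the range of this ratio, with each CG in capitals. Col3a1 (chr1:45311288-45311537, plus strand) holds no CG here, Fabp7 (chr10:57784631-57784880, plus strand) 3, Olig2 (chr16:91225207-91225456, plus strand) 18, Zfp42 (chr8:43306981-43307230, minus strand) 11 and Klf4 (chr4:55532467-55532716, minus strand) 32.
Col3a1: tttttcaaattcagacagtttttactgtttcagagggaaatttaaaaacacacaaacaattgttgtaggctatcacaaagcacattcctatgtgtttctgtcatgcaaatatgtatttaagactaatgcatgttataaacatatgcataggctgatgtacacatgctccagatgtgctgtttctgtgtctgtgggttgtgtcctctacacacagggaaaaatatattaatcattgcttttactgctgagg
Fabp7: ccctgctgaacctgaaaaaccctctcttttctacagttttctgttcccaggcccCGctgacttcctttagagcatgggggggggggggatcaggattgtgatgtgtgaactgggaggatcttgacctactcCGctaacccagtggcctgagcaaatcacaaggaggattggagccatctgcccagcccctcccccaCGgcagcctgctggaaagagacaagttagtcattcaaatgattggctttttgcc
Olig2: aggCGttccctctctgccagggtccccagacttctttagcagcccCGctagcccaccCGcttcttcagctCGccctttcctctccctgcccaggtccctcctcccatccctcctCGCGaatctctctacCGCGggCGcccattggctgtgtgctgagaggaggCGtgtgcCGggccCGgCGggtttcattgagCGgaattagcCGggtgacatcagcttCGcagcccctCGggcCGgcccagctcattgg
Zfp42: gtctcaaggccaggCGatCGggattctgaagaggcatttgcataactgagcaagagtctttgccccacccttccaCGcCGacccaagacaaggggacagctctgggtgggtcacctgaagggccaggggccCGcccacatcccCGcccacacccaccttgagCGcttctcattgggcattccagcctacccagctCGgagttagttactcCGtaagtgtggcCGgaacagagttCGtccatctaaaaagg
Klf4: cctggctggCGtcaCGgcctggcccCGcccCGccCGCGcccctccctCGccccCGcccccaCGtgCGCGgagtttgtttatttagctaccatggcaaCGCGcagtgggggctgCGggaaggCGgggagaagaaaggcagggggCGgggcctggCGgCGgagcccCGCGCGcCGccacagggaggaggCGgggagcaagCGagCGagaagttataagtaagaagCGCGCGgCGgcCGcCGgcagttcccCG
The window of Olig2, at 203 TPM in NPCs and 0.324 TPM in initial mESCs, had a ratio of 0.697, and that of Fabp7, at 816 TPM in NPCs, 0.188. Klf4 (ratio 0.970) kept 28.5 TPM in NPCs against 369 TPM in initial mESCs, and Zfp42 (0.467) 5.18 TPM against 1490 TPM.

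RAD21 was depleted in the additional mESCs for 4 h with auxin (IAA), in 12 libraries against their 12 controls, none of which enters the comparison of NPCs with initial mESCs. Over all 15732 genes tested, 41 were called higher after depletion (0.261%) and 92 lower (0.585%). Of 4354 genes higher in NPCs, 2903 had enough counts in these mESCs to be tested, and 9 were called higher (0.310%) and 37 lower (1.27%). Of 3504 genes higher in initial mESCs, 3408 were tested, and 16 were higher (0.469%) and 26 lower (0.763%). Of 9215 genes that differed by neither call, 8994 were tested, and 5 were higher (0.0556%) and 16 lower (0.178%). Genes lower after depletion that NPCs transcribe more included the ERK feedback genes Dusp6, Spry4 and Etv4, and those higher included Fgfr2 and Pdgfra; these were named after their values were seen. The median log2FC after depletion was 0.087 in the first class, 0.017 in the second and 0.013 in the third. Whether these shares differ was not tested.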

How the data were processed

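EU-seq libraries of RAD21AID cells were analysed: 2 NPC controls, 2 initial mESC controls and 12 additional mESC controls, with 12 IAA-treated additional mESC libraries for the RAD21 comparison. The deposited values are raw counts per gene. According to the study's methods and the submitters' processing notes, the authors trimmed reads with cutadapt, mapped them to mm10 with BWA, removed reads of low mapping quality with SAMtools 1.4 and rRNA and tRNA reads with bedtools, and counted reads with HTSeq over the whole gene body, introns included, of a representative transcript chosen with mESC data. The strand setting of the counting is not given in the sources used here. Of the table's columns, 34 were not used.

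The counts were tested in edgeR 4.0.16 (R 4.3.3) with TMM scaling and the quasi-likelihood test, each comparison with its own groups only, for genes with a mean count above 20 in either group. The median log2FC of genes with a mean above 15 TPM was subtracted, which was 0.0104 for NPCs against initial mESCs, −0.095 against additional mESCs and 0.117 between the mESC experiments. TPM was computed from counts and gene-body length. Genes were called at a Benjamini-Hochberg adjusted p under 0.05 and at least 2-fold, and p-values are adjusted over all genes tested. A group with no count was given a floor of 3 counts over its summed libraries, which covers counting error only, and the medians of other lists did not move with genes at this bound, except where given. Named genes were the 5 markers, the 8 largest fitted changes each way among genes with a symbol not of the Gm or Rik form, above 15 TPM in the higher group that were called alike against both sets of mESCs, and members of 26 gene lists. The members and lists were chosen with earlier results of these data known, and lists are described by counts and medians without a test. No 2 libraries of a group agreed within sampling noise (chi-square per degree of freedom 2.26 for NPCs, 3.42 for initial and 1.46 to 13.7 for additional mESCs). Of 27665 transcripts, 27455 were placed in the GRCm38.p6 annotation, from whose genome 27433 promoter windows were read. The procedure was tested on simulated data. DESeq2 1.42.0, other scalings, filters and libraries left out were tried as alternatives. Some genes of the lists are counted but not reported here by name.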

Additional observations from a re-analysis of the deposited data

How the results depend on the processing

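Of 54 counts of called genes recomputed under the alternatives, 52 stayed within 1.5 times. For NPCs against initial mESCs, DESeq2 gave 4192 higher and 3489 lower genes, no filter on low counts 4851 and 4650, and all 14 mESC controls together 4519 and 3272. Leaving out 1 library at a time gave 4275 to 4396 higher and 3367 to 3598 lower. The exceptions were the counts between the mESC experiments with no filter on low counts, 636 higher and 1930 lower. With the replicate number as a block there were 4348 higher and 3508 lower genes. The numbers do not pair the samples (correlation of same-numbered deviations −0.0247). Among named genes, 2169 of 2183 values kept direction and call. Changes of sign occurred only around 0, against the additional mESCs: Lef1 to −0.08 with no centring and −0.03 to 0.06 with either NPC library left out, and Mbp to −0.09 to 0.09 likewise. With all 14 mESC controls, Ccng1 (0.95), Hspa5 (0.59), Lef1 (−0.51), Mbp (−0.51), Otx2 (0.00) and Wapl (−0.81) were no longer called, Wapl was also not called without initial mESC replicate 2 (−0.97), and Sox10 was not called by DESeq2 (adjusted p = 0.0653), without NPC replicate 1 (0.0533) or without initial mESC replicate 2 (0.0588). Causes were not tested. With 2 NPC libraries from 1 batch, differences between NPC cultures were not measured.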

Other observations

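Gene families, some of whose members are in the lists above, were counted after their values were seen. Over all genes tested, 25.5% were called higher and 20.5% lower in NPCs than in initial mESCs. Clustered and other protocadherins, a family of adhesion molecules, were higher in NPCs for 53 of 60 genes tested and lower for none (median log2FC 4.55 against 0.06 over all genes tested), and for 60 of 60 against the additional mESCs. How far gene bodies within a family overlap is not given here, and members that share them are not separate readings. Of 45 collagens, 34 were called higher and 2 lower (median 2.33), and of 20 ADAMTS proteases, which cut matrix proteins, 15 were higher and 1 lower. Histone genes were higher for 54 of 59 tested against the initial mESCs (median 1.66). Against the additional ones 24 of 60 were higher (median 0.86), where 26.8% of all genes were, and 11 were also called higher in additional than initial mESCs. Of 86 ribosomal protein genes, 5 were called lower and none higher (median −0.31), and 24 were called lower against the additional mESCs (median −0.69), where 18.7% of all genes were. Zinc finger genes of the Zfp series, with 85 higher and 78 lower of 389, were near the shares over all genes.

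Among the 203 genes above 15 TPM in NPCs and under 1 TPM in initial mESCs, genes of connective tissue stood beside neural ones. The matrix genes Lum, Dcn and Postn reached 182, 95.0 and 70.2 TPM in NPCs, and the mesenchymal transcription factors Meox1, Foxc2 and Twist2 62.8, 50.4 and 21.4 TPM. The neural patterning genes Zic1 and Shh reached 340 and 74 TPM, and the chemokine Ccl2 325 TPM. These genes were named after their values were seen. Whether separate cells in the cultures carry the mesenchymal transcripts was not tested.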
